A study of Homo sapiens with 6 samples.

Results

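The genes described here were the 5 Rel-family subunits of the transcription factor NF-kB (NFKB1, NFKB2, REL, RELA and RELB) and 5 regulators of its noncanonical pathway (TRAF2, TRAF3, BIRC2, BIRC3 and MAP3K14). They were taken by name from the deposited gene counts, and the 10 symbols each matched 1 of the 57905 gene identifiers in the files. All 10 passed the filter on low counts, as did 14398 genes in total. The RNA came from NCI-H929, an established human multiple myeloma cell line. In each reaction 5 μg of its total RNA stayed for 1 h at 37 °C in a buffer with ATP, either with 2 μg of a recombinant human IRE1 fragment (residues 467 to 977) in the 3 IRE1-treated samples or without the enzyme in the 3 control samples. Both groups were then heated to 95 °C for 5 min, and poly(A)-containing RNA was sequenced. IRE1 acted on RNA outside the cell, so the comparison asked which transcripts lost or kept reads after contact with the enzyme, and it does not show a response of living cells. The samples came from 1 cell line and are described as biological replicates.

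NF-kB is a family of dimeric transcription factors. In the canonical pathway an IKK kinase complex marks IkB inhibitors for degradation and frees dimers of RELA or REL with the product of NFKB1. In the noncanonical pathway the kinase encoded by MAP3K14 (NIK) triggers processing of the NFKB2 precursor, which then pairs with RELB; in resting cells an assembly of TRAF2, TRAF3 and the ubiquitin ligases BIRC2 and BIRC3 keeps NIK low, and losses of these inhibitors recur in multiple myeloma. IRE1 is a sensor of stress in the endoplasmic reticulum whose RNase cuts RNA at a consensus best known from hairpin loops, written CTGCAG in DNA letters.

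The longest annotated transcripts of the 10 genes held 36 matches to CTGCAG on the sense strand, and every gene had at least 2. The motif was frequent in general: 86.7% of the 12225 tested protein-coding genes had at least 1 match in their longest transcript, and 96.6% of those with a transcript of 5000 bases or more. RNAfold placed 5 of the 36 matches in a hairpin loop, 3 of them in TRAF3, 1 in TRAF2 and 1 in MAP3K14, against 15.5% of the matches in all tested protein-coding genes. A hairpin here meant that, in the fold of the motif with 15 bases on each side, the third base of the motif was in a loop 5 to 11 bases long on a stem with a minimum of 3 pairs. Of the 10 genes, 6 carried the motif in every annotated protein-coding transcript.

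Both sites of REL and the hairpin sites of TRAF3, TRAF2 and MAP3K14 are shown with 12 bases on each side. REL and TRAF3 were the genes that fell after the reaction. TRAF3 had 9 matches, and those outside hairpins are not shown. Capitals mark the motif, the sequences run 5′ to 3′ along the transcript, and the coordinates are those of the motif in GRCh37, where all 36 matches were found at the stated bases.
REL site 1: agttggaaaagaCTGCAGagacggctacta
REL site 2: gtgctccaaataCTGCAGaattaaggattt
TRAF3 hairpin site 1: gcacagcatgtcCTGCAGcagctctgtcaa
TRAF3 hairpin site 2: gccatggtctctCTGCAGctgaggcccagt
TRAF3 hairpin site 3: gtcccgcggagcCTGCAGagctagacgttg
TRAF2 hairpin site: gagggtgtcggcCTGCAGccaagttcactg
MAP3K14 hairpin site: tccaccgcgtgtCTGCAGcggagctgggag

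Both REL sites lay in coding sequence on the plus strand, in exon 3 (chr2:61121627-61121632) and exon 6 (chr2:61145338-61145343) of 11 exons, and neither was in a predicted hairpin loop. They were close to the 5′ end, so that 92.3% of the longest REL transcript lay 3′ of the last match. That match started at 7.7% of the transcript from the 5′ end. In the study's scheme, cut RNA loses the part 5′ of the cut when poly(A) RNA is purified. TRAF3 had 9 matches, and its hairpin sites were in the 5′ UTR (chr14:103294807-103294812, in exon 1 of the longest transcript and outside the exons of the canonical one) and in the 3′ UTR (chr14:103374885-103374890 and chr14:103375322-103375327, both in the last of 12 exons, plus strand). Only 5.5% of the TRAF3 transcript lay 3′ of its last match. The TRAF2 hairpin site was in the 3′ UTR (chr9:139820487-139820492, exon 11 of 11, plus strand), and the MAP3K14 site was in coding sequence (chr17:43347819-43347824, exon 11 of 16, minus strand). The gene counts do not show where a transcript was cut, and which of these sites IRE1 used was not tested.

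**Figure D1:**
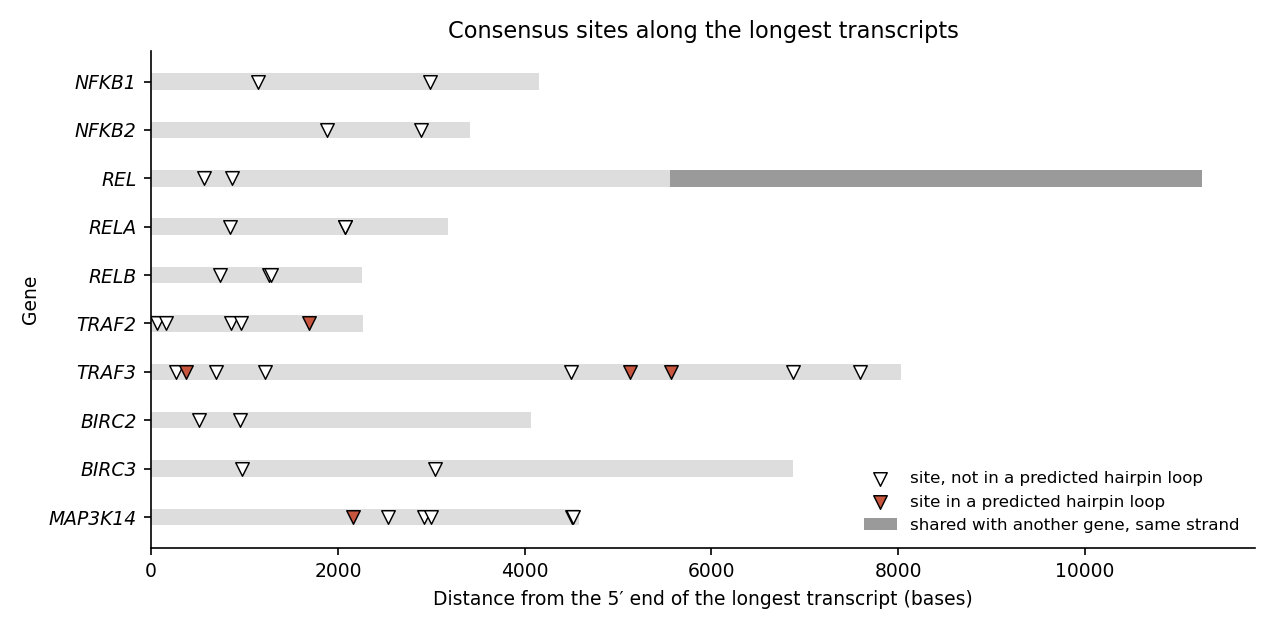
Positions of CTGCAG matches (triangles) along the longest annotated transcript of each gene (grey bars, in bases from the 5′ end), with filled triangles for predicted hairpin loops and dark grey for the REL bases shared with another gene on the same strand. The 2 REL sites sit near its 5′ end, the 9 TRAF3 sites are spread over the transcript, and matches a few bases apart, as in RELA, lie on top of each other.

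The 6 libraries held 19615715 to 25678499 counts on genes. TMM scaling, which assumes that the bulk of genes did not change, gave factors of 1.02 to 1.03 to the controls. IRE1-treated replicate 1 had a factor of 0.947, replicate 2 of 0.980 and replicate 3 of 0.996, so that replicate 1 stood furthest from the controls and was also the shallowest. Over all tested genes, 3270 (22.7%) had an adjusted p under 0.05 (edgeR's quasi-likelihood test, adjusted by Benjamini-Hochberg over all of them), 1781 of them lower and 1489 higher in IRE1-treated samples. With library size alone as the scale the split was 2596 lower and 683 higher, and with a trend on transcript length and GC content removed it was 630 and 1049. The IRE1 substrate BLOC1S1 fell from 612 ± 33.9 to 239 ± 33.0 normalized counts (SD, n = 3; log2 fold change −1.37). Of its exon, 29.8% is shared on the same strand with ENSG00000258311. XBP1, whose mRNA IRE1 cuts in cells, had a log2 fold change of −0.09 at the gene level with an adjusted p of 0.143 in the edgeR fit. XBP1 passed the test with the length and GC trend removed (−0.20, edgeR adjusted p = 0.0011), with library size as the scale (−0.17, 0.0037) and without IRE1-treated replicate 1 (−0.11, 0.0276). For this in vitro reaction the study reported fewer reads in XBP1 exons 5′ of the cleavage sites and similar reads in 3′ exons. It also found lower XBP1 signal by qRT-PCR across the sites. Gene counts do not separate these parts. Plasma cell markers were present as the label of the line implies (8 of 8 genes, 7308 to 7695 CPM, counts per 1000000, in sum). B cell markers summed to a range from 2.66 to 3.30 CPM, with MS4A1 at 1 count in all libraries together and CD22 at 0, myeloid markers to 1.05 to 1.97 and fibroblast markers to at most 0.700. Of the T cell markers, CD3E alone was well covered, with 890 to 1063 counts per library.

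In control H929 RNA, which was incubated and heated without the enzyme, RELA was the most abundant of the 10 transcripts and BIRC3 the least. Whether the incubation and heating changed these levels was not tested. Levels are given as counts per kilobase of exon (the union of annotated exons) per 1000000 TMM-scaled counts, as mean ± SD of the 3 control libraries. RELA, the main transactivating subunit of the canonical pathway, stood at 26.4 ± 0.998. NFKB2, the precursor of the noncanonical pathway, followed at 16.5 ± 0.643. BIRC2, a ubiquitin ligase of the NIK-degrading assembly, had 11.5 ± 0.230, and its adaptor TRAF2 had 7.33 ± 0.0420. RELB, the partner of processed NFKB2, came next at 4.95 ± 0.416. The ranges of these 5 genes did not overlap between neighbours in the order.

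NFKB1 (1.95 ± 0.0120), MAP3K14 (1.87 ± 0.175) and TRAF3 (1.84 ± 0.106) came next. The range of MAP3K14 overlapped those of NFKB1 and TRAF3, so that its place among them is not resolved at this spread, while the ranges of NFKB1 and TRAF3 did not overlap. The lowest levels were those of REL (0.259 ± 0.0208) and BIRC3 (0.177 ± 0.0132), whose ranges did not overlap. BIRC3 is an NF-kB target gene as well as a ligase of the assembly, and it had only 30 to 32 counts in each control library against 1127 to 1347 for its paralog BIRC2. Since these are RNA values of a cell population, fewer expressing cells and less RNA per cell cannot be told apart.

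The length chosen for a gene moved some of these levels. With the longest transcript in place of the exon union, NFKB1 rose in the order to 7.37 ± 0.0455 and passed RELB (6.57 ± 0.552), and TRAF3 (2.72 ± 0.157) and MAP3K14 (2.31 ± 0.216) changed places with overlapping ranges. The other 6 genes kept their places. The NFKB2 level was 8.46 ± 0.280 times that of NFKB1 in controls by exon union and 3.67 ± 0.121 times by longest transcript, so NFKB2 was the more abundant precursor transcript on both scales, but the size of the difference depended on the scale.

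**Figure D2:**
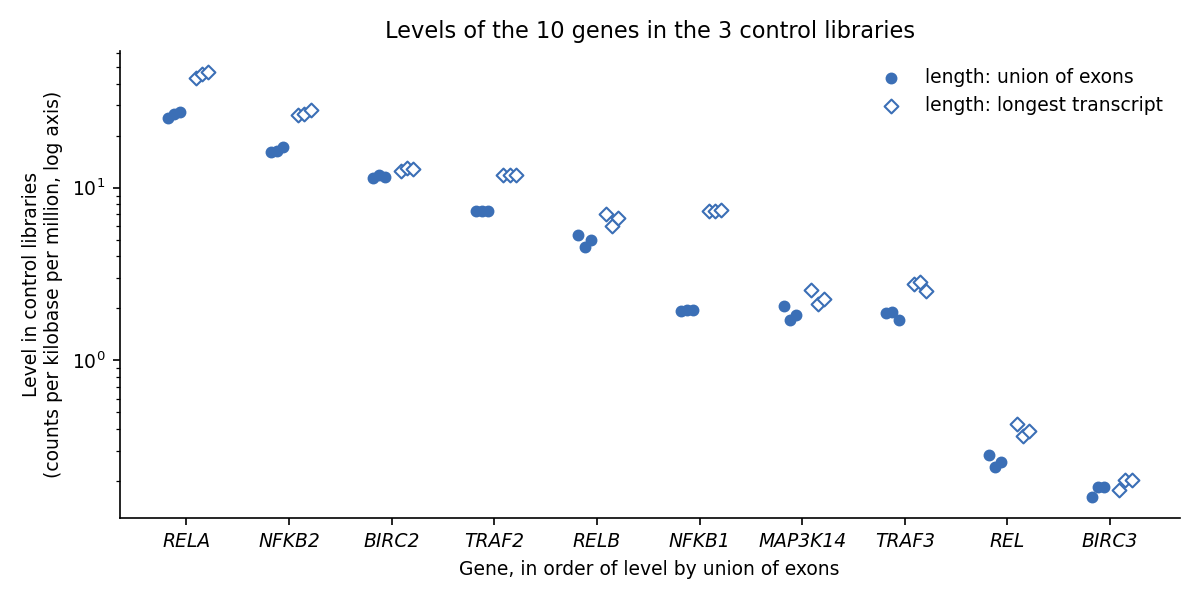
Level of each gene in the 3 control libraries, in counts per kilobase per 1000000 counts on a log axis, with the union of exons (filled circles) or the longest transcript (open diamonds) as the length. RELA is highest and BIRC3 lowest with both lengths, and NFKB1 shows the largest gap between them.

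Among the 5 subunits, RELA made up 52.7 ± 0.986% and NFKB2 33.0 ± 0.303% of the summed level in controls by exon union. RELB held 9.88 ± 0.912%, NFKB1 3.90 ± 0.0921% and REL 0.518 ± 0.0492%. With the longest transcript as length, NFKB1 held 8.51 ± 0.197% and RELB 7.58 ± 0.713%, so that their order turned. By both lengths RELA and NFKB2 together carried most of the subunit signal in the control libraries. In IRE1-treated samples, by exon union, the REL share was 0.202 ± 0.0860% and the NFKB2 share 35.9 ± 1.02%, while RELA had 49.7 ± 0.824%. These shares sum to a fixed total within a library, so they do not vary independently of each other.

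After incubation with IRE1, REL and TRAF3 fell, NFKB2 had a slightly higher normalized count and 7 of the 10 genes did not pass the test. Normalized counts are relative to the other RNA in a library, so a higher value does not show a gain of RNA. The 2 lower genes compare with 12.4% lower among all tested genes, and the 1 higher gene with 10.3% higher. The median log2 fold change of the 10 was −0.05, against 0.00 over all tested genes, whose interquartile range ran from −0.17 to 0.15. The 10 genes as a group were therefore near the background, and REL stood apart from the others.

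**Figure D3:**
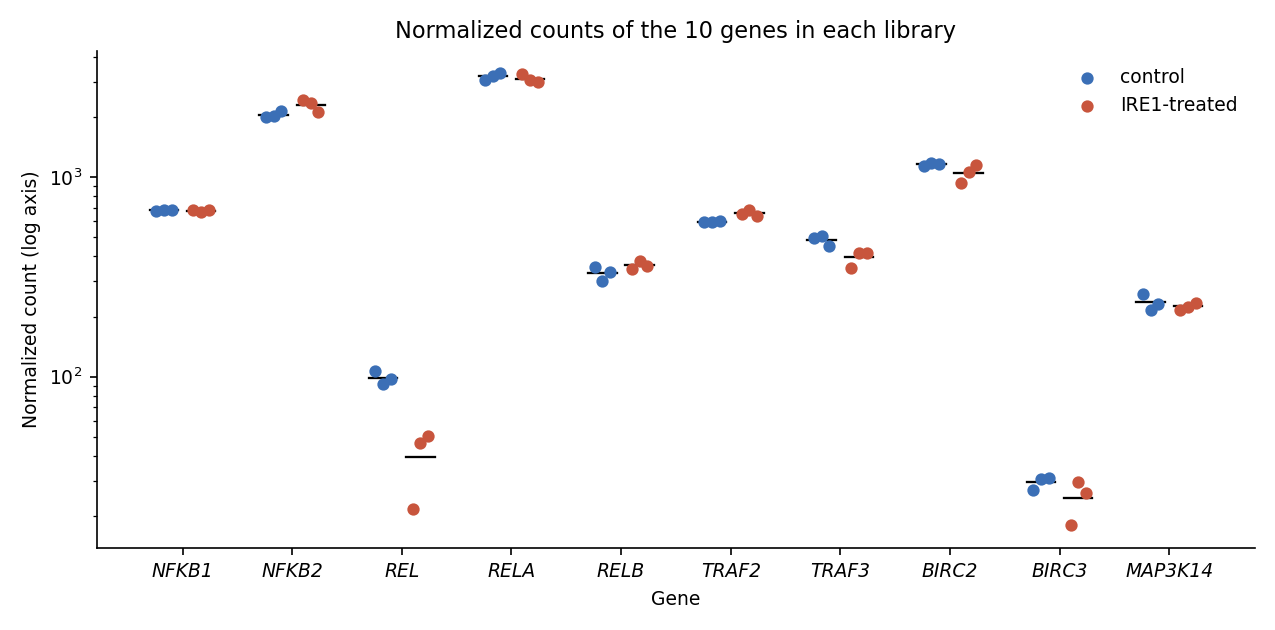
Normalized count of each gene in each library (log axis; blue, control replicates 1 to 3 from left to right; red, IRE1-treated replicates 1 to 3; black bars, group means). REL is 91.4 to 107 in the controls and 21.6 to 50.4 in the IRE1-treated libraries, while most other genes differ little between the groups.

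REL (ENSG00000162924, chr2:61108626-61158747, plus strand) encodes c-Rel, a transactivating subunit best known from lymphocytes. Its raw counts were 127, 95 and 95 in control replicates 1, 2 and 3 and 18, 44 and 52 in IRE1-treated replicates 1, 2 and 3. Scaled to the mean library these were 107, 91.4 and 97.6 normalized counts against 21.6, 46.4 and 50.4. Every IRE1-treated library lay below every control, and IRE1-treated replicate 1 was the lowest by a wide margin. The group means were 98.7 ± 7.93 and 39.5 ± 15.6 (SD, n = 3), a log2 fold change of −1.30 with a standard error of 0.22 and an adjusted p of 0.00082 in edgeR's quasi-likelihood test. Only 18 of the 14398 tested genes had a log2 fold change this low or lower, REL included.

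REL remained past the threshold under each of the 15 alternative settings, with log2 fold changes from −1.51 to −0.93 and a highest adjusted p of 0.0103 across the edgeR, DESeq2 and limma fits. Without IRE1-treated replicate 1 the value was −1.03, and with the length and GC trend removed it was −0.99. The longest REL transcript, of 11255 bases, was also the longest of the 10 genes. Its last 5702 bases (50.7%) are annotated as exon of the long noncoding RNA ENSG00000267520 on the same strand, which was listed at 0 in all 6 libraries. Whether reads from the shared bases were set aside as ambiguous by the counting was not tested. If they were, the REL counts came only from the rest of the gene, in the longest transcript its first 5553 bases. The fold change of REL and its place among all tested genes would then rest on that 5′ part. Without the shared bases in its length, the control level of REL was 0.388 by exon union and 0.799 by longest transcript, still below TRAF3.

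The genes whose 6 libraries followed REL most closely were MRTFB, GAS2L3 and NFAT5. Likeness was the root mean square difference of the log2 values, each less its control mean, over the 6 libraries, and it was computed for the 10293 genes whose mean reached 100 normalized counts. MRTFB differed from REL by 0.368, GAS2L3 by 0.386 and NFAT5 by 0.390 on that log2 scale. Their own log2 fold changes were −0.96, −0.85 and −1.06, and part of the exon of each is shared on the same strand with another annotated gene (0.8%, 0.77% and 7.83%). REL itself, with a mean under that minimum, was not a candidate.

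The other transactivating subunit of the canonical pathway did not follow REL. RELA (ENSG00000173039, chr11:65421070-65430561, minus strand) had 3077, 3230 and 3316 normalized counts in the controls and 3281, 3079 and 3008 after IRE1. The groups overlapped, and the log2 fold change was −0.04 ± 0.05 (SE; edgeR adjusted p = 0.635). Within each library REL had 3.48, 2.83 and 2.94 counts per 100 RELA counts in controls and 0.657, 1.51 and 1.68 in IRE1-treated samples, a ratio that needs no scaling between libraries. The exact two-sided permutation test gave p = 0.1, the smallest that 3 samples against 3 allow, and 0.15 after Benjamini-Hochberg adjustment over 3 ratios. This ratio and that of TRAF3 to TRAF2 were chosen after the values had been seen. Neither ratio was corrected for the length and GC trend, and in both the first gene has the longer transcript. The longest transcripts are 11255 bases for REL against 3183 for RELA, and 8028 for TRAF3 against 2266 for TRAF2.

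NFKB1 (ENSG00000109320, chr4:103422487-103538459, plus strand), the canonical precursor gene, was the steadiest of the 10. Its normalized counts were 677, 680 and 685 without the enzyme and 685, 672 and 684 with it. The ranges lay over each other, with a log2 fold change of 0.00 ± 0.06 (SE; edgeR adjusted p = 0.994).

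NFKB2 (ENSG00000077150, chr10:104153867-104162281, plus strand) had 1997, 2015 and 2144 normalized counts in controls against 2444, 2353 and 2127 after the reaction. Replicates 1 and 2 of the IRE1-treated group were above all controls, and replicate 3 was within their range, so the groups overlapped. The means were 2052 ± 79.8 and 2308 ± 163 (SD, n = 3), a log2 fold change of 0.17 ± 0.06 (SE) with an edgeR adjusted p of 0.0451, close to the threshold. The call was lost with library size as the scale (log2 fold change 0.09, edgeR adjusted p = 0.243). Among the 6 fits that left out 1 library it was kept without IRE1-treated replicate 3 (0.23) and lost without control replicate 1 (0.15), control replicate 2 (0.16), control replicate 3 (0.20), IRE1-treated replicate 1 (0.13) and IRE1-treated replicate 2 (0.15). NFKB2 had 295, 296 and 313 counts per 100 NFKB1 counts in controls and 357, 350 and 311 after IRE1 (exact two-sided permutation p = 0.2, adjusted 0.2).

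RELB (ENSG00000104856, chr19:45504719-45541450, plus strand), the partner of processed NFKB2, had 355, 300.3 and 334 normalized counts in controls and 345, 380 and 359 in IRE1-treated samples. The groups overlapped, and its log2 fold change of 0.13 ± 0.09 (SE) did not pass the test (edgeR adjusted p = 0.329).

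Of the 5 noncanonical regulators, TRAF3 alone passed the test. TRAF3 (ENSG00000131323, chr14:103243786-103377837, plus strand) is the adaptor that binds NIK and brings it to the ubiquitin ligases. It had 497, 505 and 453 normalized counts without the enzyme and 352, 417 and 419 with it, and the groups did not overlap. The means were 485 ± 28.1 and 396 ± 37.9 (SD, n = 3), a log2 fold change of −0.29 ± 0.09 (SE) with an edgeR adjusted p of 0.0230. With the length and GC trend removed the log2 fold change was −0.09 (edgeR adjusted p = 0.502), and the call was also lost without control replicate 1 (−0.27, adjusted p = 0.102), control replicate 2 (−0.26, 0.111) or IRE1-treated replicate 1 (−0.22, 0.0547).

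TRAF2 (ENSG00000127191, chr9:139776364-139821059, plus strand), which links TRAF3 to the ligases, had 594, 598 and 601 normalized counts in controls and 656, 685 and 640 in IRE1-treated samples. The IRE1-treated libraries were all above the controls, but the log2 fold change of 0.14 ± 0.06 (SE) did not pass the test (edgeR adjusted p = 0.124; unadjusted p = 0.0407). With the length and GC trend removed the TRAF2 value was 0.07 (edgeR adjusted p = 0.459). REL, TRAF3 and TRAF2 were the 3 of the 10 genes whose groups did not overlap, against 39.1% of all tested genes. TRAF3 had 83.7, 84.5 and 75.4 counts per 100 TRAF2 counts in controls and 53.6, 60.8 and 65.5 after IRE1 (exact two-sided permutation p = 0.1, adjusted 0.15).

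**Figure D4:**
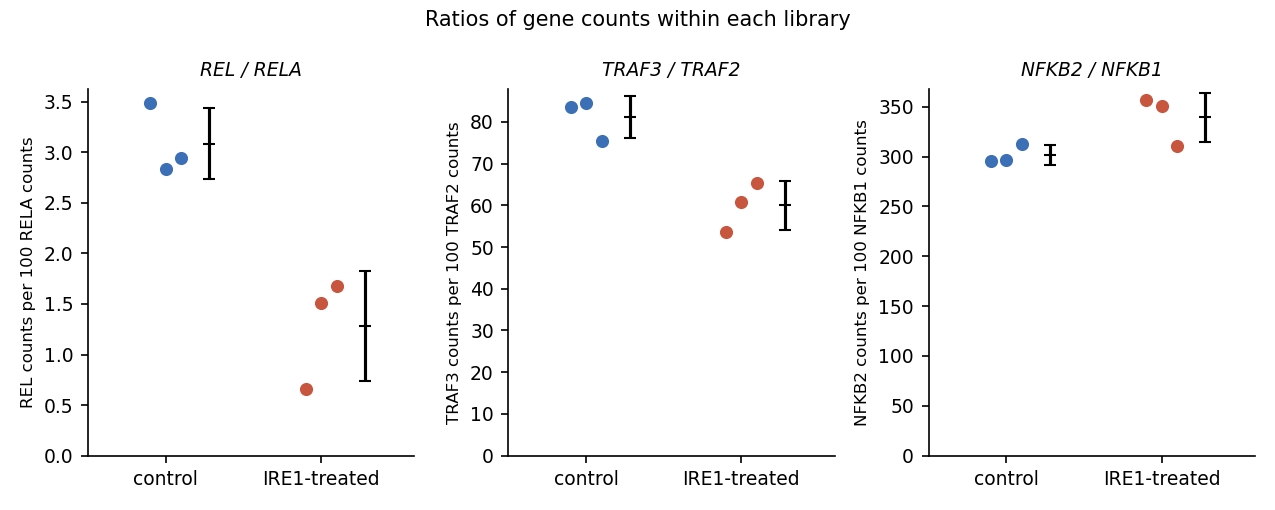
Counts of 1 gene per 100 counts of another within each library (blue, control replicates 1 to 3; red, IRE1-treated replicates 1 to 3; bars, mean ± SD). The control and IRE1-treated libraries do not overlap for REL to RELA or for TRAF3 to TRAF2, and they overlap for NFKB2 to NFKB1.

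BIRC2 (ENSG00000110330, chr11:102217942-102249401, plus strand) had 1137, 1183 and 1158 normalized counts in controls and 932, 1061 and 1153 in IRE1-treated samples. The lowest value was again that of IRE1-treated replicate 1, while replicate 3 lay within the controls. The log2 fold change was −0.14 ± 0.07 (SE; edgeR adjusted p = 0.161), and it passed the test only without IRE1-treated replicate 3 (−0.21, edgeR adjusted p = 0.0173).

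BIRC3 (ENSG00000023445, chr11:102188215-102210134, plus strand) had 32, 32 and 30 raw counts in controls and 15, 28 and 27 in IRE1-treated samples. The normalized groups overlapped, and at this depth the standard error was wide (log2 fold change −0.25 ± 0.26, SE; edgeR adjusted p = 0.539). MAP3K14 (ENSG00000006062, chr17:43340486-43394395, minus strand), which encodes NIK itself, had 259, 216 and 231 normalized counts in controls and 217, 224 and 235 after IRE1, and its log2 fold change was −0.07 ± 0.10 (SE; edgeR adjusted p = 0.696). Of its exon bases, 858 are also exon of MAP3K14-AS1 on the opposite strand, which had 56 to 89 counts per library and a log2 fold change of 0.00. Reads of the pair cannot be told apart if the counting ignored strand, a setting that is not given in the sources used here. BIRC3 and RELA share 126 and 103 exon bases with opposite-strand RNAs.

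Transcript length moved with these values. REL and TRAF3 had the longest transcripts of the 10 genes (11255 and 8028 bases), and among tested protein-coding genes with a longest transcript of at least 8000 bases 45.6% were lower and 1.44% higher, with a median log2 fold change of −0.26. For shorter transcripts the shares were 10.6% and 12.4%. The TRAF3 value of −0.29 was close to the median of such long genes, and the REL value of −1.30 was also below −0.59, under which the lowest 10% of them lay. Across the 10 genes the Spearman correlation of log2 fold change with transcript length was −0.84, and across 12225 tested protein-coding genes it was −0.63. These points share libraries and genes are not independent replicates, so the correlations are descriptions. The fits that took length into account removed a joint trend on length and GC content. GC content of the longest transcript was 38.7% for REL and 53.3% for TRAF3, within a range from 35.8% (BIRC3) to 64.9% (RELB). The part of length alone in the REL and TRAF3 values was therefore not measured.

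Around the 10 genes, few of the other pathway genes passed the test. Of 61 genes in 6 lists of inhibitors, kinases, receptors, ligands, ubiquitin regulators and target genes, 57 matched an identifier and 42 were tested. In edgeR's quasi-likelihood test 4 were lower (9.52%), 2 were higher (4.76%) and 36 did not pass, with a median log2 fold change of −0.02. These shares were below those of all tested genes, without a test of that difference.

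The lower genes outside the 10 included TAB2 and TAB3, adaptors of the kinase TAK1, which acts upstream of IKK. TAB2 had 1145, 1118 and 1051 normalized counts in controls and 732, 881 and 878 in IRE1-treated samples (log2 fold change −0.41 ± 0.07, SE; edgeR adjusted p = 0.0011). TAB3 had 386, 350 and 322 against 206, 236 and 257 (−0.60 ± 0.10; edgeR adjusted p = 0.0011). The groups of both genes did not overlap, and both passed the test under all 15 alternatives. With the length and GC trend removed the values were smaller, −0.29 for TAB2 and −0.39 for TAB3. TAB1, the other TAK1 partner in the list, did not pass (log2 fold change 0.07, edgeR adjusted p = 0.462), and its groups overlapped.

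The other tested kinases and adaptors of that list did not pass either, among them the IKK subunits CHUK (log2 fold change −0.04) and IKBKB (−0.03). CYLD, a deubiquitinase that restrains NF-kB, had a log2 fold change of −0.21 (edgeR adjusted p = 0.0370), which became 0.05 with the length and GC trend removed. Its call was also lost with DESeq2 (adjusted p = 0.0546) and in each fit that left out 1 library (edgeR adjusted p = 0.0765 to 0.139) other than the fit without IRE1-treated replicate 3. ICAM1, an adhesion molecule and NF-kB target gene, fell by 0.15 on the log2 scale (edgeR adjusted p = 0.0227), and 23.6% of its exon is shared with ICAM4-AS1 on the opposite strand. The ICAM1 call was lost without control replicate 1 (edgeR adjusted p = 0.0585), control replicate 2 (0.134), control replicate 3 (0.0728) or IRE1-treated replicate 2 (0.0670).

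The higher genes were TNFRSF17 and IL2RG. TNFRSF17 (BCMA), a receptor of plasma cells, had 11000, 10674 and 10639 normalized counts in controls and 13214, 12742 and 12449 after IRE1 (log2 fold change 0.25 ± 0.04, SE; edgeR adjusted p = 0.0013), and with the length and GC trend removed the value was 0.08 (edgeR adjusted p = 0.176). IL2RG, a cytokine receptor chain and target gene, had a log2 fold change of 0.49 (edgeR adjusted p = 0.0361), which with that trend removed was 0.35 (0.159), and 51.3% of its exon is shared on the same strand with ENSG00000285171. The IL2RG call was also lost with library size as the scale (edgeR adjusted p = 0.0714) and in each fit that left out 1 library (0.0520 to 0.143) other than the fit without IRE1-treated replicate 3.

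None of the 6 genes of the IkB family, which holds inhibitors and nuclear cofactors such as BCL3, passed edgeR's, DESeq2's or limma's test, and 1 had an unadjusted p under 0.05 in the edgeR fit. That gene was NFKBIA, the main inhibitor of RELA dimers and itself a target, with 611, 593 and 572 normalized counts in controls and 766, 627 and 642 in IRE1-treated samples. Its groups did not overlap, with a log2 fold change of 0.19 ± 0.08 (SE; edgeR adjusted p = 0.0932), and it passed the test only without IRE1-treated replicate 3 (0.24, edgeR adjusted p = 0.0345). Most upstream ligands were not detected. None of the 9 ligand genes passed the filter on low counts, and TNF, LTB, TNFSF11, TNFSF12, TNFSF13 and TNFSF14 were listed at 0 in every library, as was LTBR, a receptor that feeds the noncanonical pathway. TNFSF12 and TNFSF13 share exons on the same strand with the readthrough gene TNFSF12-TNFSF13.

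**Figure D5:**
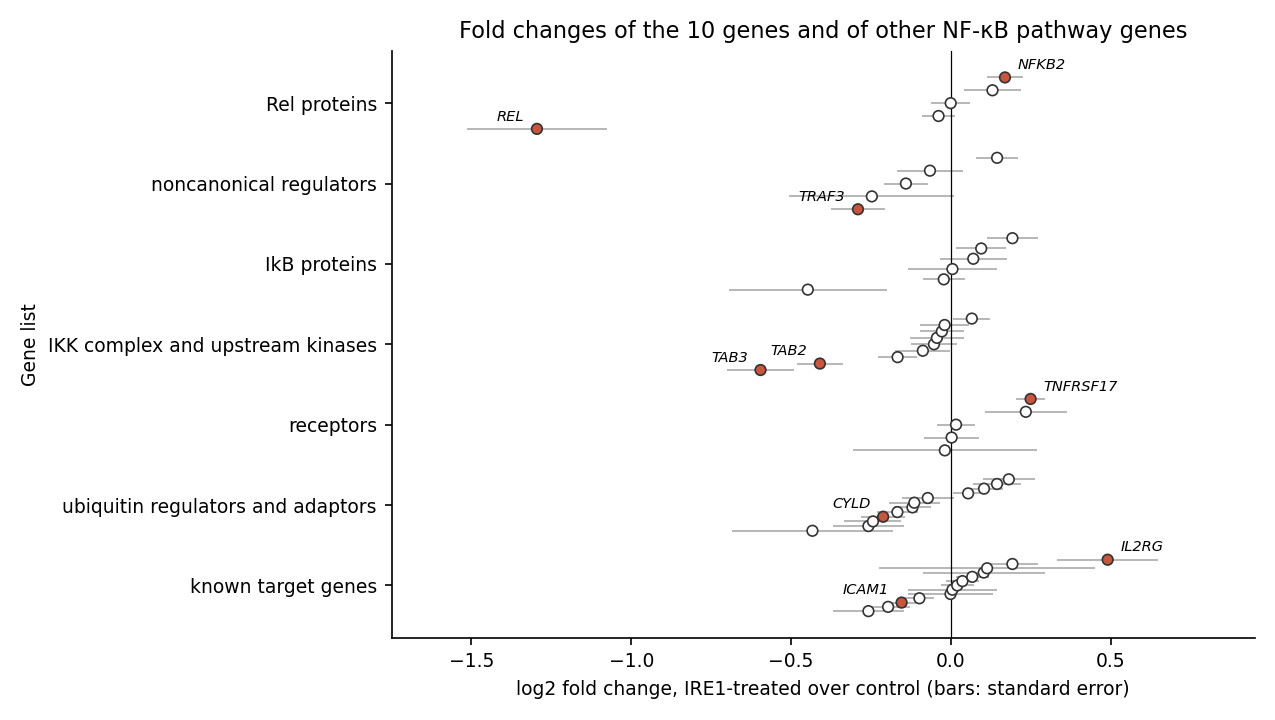
log2 fold change (IRE1-treated over control, bars for the standard error) of the tested genes of each list, with filled circles for genes past an adjusted p of 0.05 in edgeR's quasi-likelihood test. REL at −1.30 lies well to the left of all other genes shown, and most values lie close to 0 on either side.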

How the data were processed

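Total RNA of NCI-H929 incubated with or without IRE1 was sequenced in 3 libraries a group. Per the labels and the study's methods, reads were trimmed with cutadapt 1.12, aligned to hg19 (GRCh37) with STAR 2.5.3a and counted per Ensembl gene with HTSeq 0.6.1p1. The strand and overlap settings are not given in the sources used here. The authors deposited raw counts per gene for each library and a CPM table made with edgeR 3.24.3, which served only in an alternative with a pseudocount of 1. The 5 HTSeq summary lines, 21.4 to 23.2% of each file, were left out.

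The counts were filtered (filterByExpr, 14398 of 24945 genes with a count), scaled by TMM and tested with edgeR 4.0.16 in R 4.3.3 (quasi-likelihood, all 6 libraries, no covariates, Benjamini-Hochberg over all tested genes, threshold 0.05). The standard error is the log2 fold change divided by the square root of F. A normalized count is the raw count over the effective (TMM-scaled) library size, multiplied by the mean library size. In simulated counts with the depths and dispersions of these libraries over 14398 genes, 153 of 200 planted changes were found. These included 90 of 104 that were 2-fold, and 10 calls were false. The simulation held no length or GC trend and changed only those 200 genes. It therefore does not show recovery or false calls under the broader shifts of the real counts. The lowest chi-square per gene between libraries was 2.13, so none was a copy of another. Counting error is part of the fits. p-values measure the spread between these samples. The study's methods do not say whether the samples came from separate cultures, so this spread may not include that between cultures.

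Names, lengths and transcript sequences were those of GENCODE release 44 lifted to GRCh37 (55538 of 57905 identifiers named), and folds came from ViennaRNA 2.7.2. The listed symbols IKBKG, IKBKE, OTUD7B and SOD2 matched no identifier and were not analysed here. Permutation tests used scipy 1.17.1 in Python 3.11.15. Alternatives were DESeq2 1.42.0, upper quartile scaling, library size only, no low-count filter, at least 10 counts in every library, limma 3.58.1 on log2 CPM, removal of a loess trend (span 0.5) on length and GC, a block for the replicate number, both of these at once, and leaving out each library. All 10 genes are named, and of the lists those past the threshold, at most 3 lowest and 3 highest per list, and defining genes. The genes and lists were chosen with earlier results of these data known. Exon counts were not used here.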

Additional observations from a re-analysis of the deposited data

How the results depend on the processing

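REL was the only 1 of the 10 genes past the threshold under all 15 alternatives. The genes lower among the 10 were 1 in place of 2 with the length and GC trend removed, with or without the block, and the higher gene was lost (0) with library size only and with the replicate block. Leaving out 1 library gave 1 to 4 changed genes among the 10, 1 to 3 lower and 0 to 1 higher. NFKB2 had a log2 fold change of 0.092 with library size only and 0.17 with the replicate block (adjusted p = 0.0830), and 0.13 to 0.23 with 1 library left out. TRAF3 was −0.091 with the length and GC trend removed and −0.092 when the replicate block was added, and −0.34 to −0.22 with 1 library left out. BIRC2 ranged from −0.21 to −0.062 in those fits. Values near 0 changed sign: NFKB1 was 0.0018 with DESeq2, 0.0021 with upper quartile scaling, 0.0526 with the trend removed and 0.0526 with the block added, and −0.0054 to 0.0080 with 1 library left out; MAP3K14 was 0.0033 with block and trend removal together and −0.13 to 0.013 with 1 library left out; CYLD was 0.048 with the trend removed and 0.0476 with the block added. In the same 2 fits CHUK was 0.0212 and 0.0204, IKBKB 0.0071 and 0.0080, and MAP3K14-AS1 −0.052 and −0.046. With 1 library left out CHUK was −0.0912 to 0.0142, IKBKB −0.0871 to 0.0245 and MAP3K14-AS1 −0.035 to 0.085. With library size only MAP3K14-AS1 was −0.070 and TAB1 −0.011, and without a filter MAP3K14-AS1 was −0.0078.

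Over all genes, removing the trend left 1679 calls (630 lower), and with the block added 1437 (529 lower, 908 higher). Library size only gave 683 higher. With 1 library left out the calls were 1630 to 4310, with 960 to 2224 lower and 637 to 2086 higher, and fewer by over 1.5 times without control replicate 1 (1659), control replicate 2 (1630) or IRE1-treated replicate 2 (1980). Of the pathway genes outside the 10, 10 were lower with library size only and 2 with the replicate block, and 1 was higher with library size only and with the trend removed, with (1) or without the block. Leaving out 1 library gave 2 to 6 lower and 1 to 5 higher. The causes were not tested, except that a fit without 1 library has fewer samples.

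Same-numbered samples did not deviate together (correlations −0.03, −0.00083 and −0.10), so the numbers were not taken as pairs, and the block changed no other call among the 10. Of the pathway genes it also ended the calls of ICAM1 (adjusted p = 0.0715) and CYLD (0.0735).

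With the longest transcript as length, control levels were 7.37 (NFKB1), 27.1 (NFKB2), 0.394 (REL), 45.3 (RELA), 6.57 (RELB), 11.9 (TRAF2), 2.72 (TRAF3), 12.8 (BIRC2), 0.193 (BIRC3) and 2.31 (MAP3K14), and the NFKB2 to NFKB1 ratio 3.67. With library size only, NFKB1 was 2.00, TRAF2 7.53 and BIRC2 11.8. The length of REL without its shared bases, an alternative chosen after seeing the data, gave 0.388. Over all annotated coding transcripts, 6 of the 10 genes held the motif in each. Depth limits BIRC3 most, with 15 to 32 counts per library.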
